A study of Homo sapiens with 12 samples.

Results

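The change in polysome-associated RNA after interferon-gamma (IFNg) was measured in A375, an established human melanoma cell line, by setting the 2 arrays of polysomal RNA titled IFNg against the 2 titled DMSO. These are 4 of the 12 arrays of the study, chosen by title alone, and every transcript cluster on them was tested. The DMSO cells received DMSO for 2 h and the IFNg cells IFNg for 24 h, so the groups differ in hours of treatment as well as in the cytokine, and the labels name no vehicle for IFNg. The other 8 arrays hold total RNA of the same treatments, and both fractions from cells given IFNg for 24 h with silvestrol, an inhibitor of the RNA helicase eIF4A, for 2 h, at 2 arrays per group. All cells are of 1 line, and nothing in the labels says that replicates are separate cultures, so each p-value rests on the scatter between these samples, which may be technical.

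IFNg signals through a cell surface receptor with bound JAK kinases, and promoters of its early target genes often carry GAS elements. One of its first targets is IRF1, a transcription factor that acts on further promoters through ISRE elements. In tumour cells the response is known for antigen presentation on HLA molecules, for the immunoproteasome, for guanylate-binding proteins, for chemokines that attract T cells, and for the checkpoint ligand PD-L1. Polysomal RNA is RNA carried by several ribosomes at once, so a change there holds both the change in transcript abundance and any change in ribosome loading. Total RNA, measured beside it, holds the first of these.

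A transcript cluster is a set of probes for 1 transcribed locus, and its level is given as log2 of the deposited intensity. A change is the mean of the 2 IFNg arrays minus the mean of the 2 DMSO arrays on this scale, so a change of 1 is 2-fold. The table covers 65535 clusters of chromosomes 1 to 8 and part of chromosome 9, so many interferon targets lie outside it. Of these, 7808 clusters (11.9%) had a mean log2 level of at least 7 over the 12 arrays and are called bright here. Bright clusters with a single gene symbol represent 5087 genes, each through its brightest cluster. A cluster or gene was called where the adjusted p of limma's test, adjusted over all 65535 clusters, lay below 0.05. Each count is given on the deposited values and again after quantile normalization within the polysomal arrays, because the polysomal IFNg arrays were dimmer than the rest. Median log2 levels of bright clusters were 9.44 and 9.52 on them and 9.93 and 10.10 on the polysomal DMSO arrays. Levels of the melanocyte regulator MITF averaged 13.15, while the melanocyte antigen MLANA averaged 5.89, below the bound for bright clusters. The fibroblast, leukocyte and epithelial markers COL1A2, PTPRC, CD14 and EPCAM averaged between 3.91 and 6.53.

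On polysomes, IFNg raised a group of immune genes by up to 11.98 on the log2 scale and lowered other genes by smaller amounts. Whether falls outnumbered rises depended on the normalization. Among bright clusters 166 rose (2.13% of those tested) and 1048 fell (13.4%) on the deposited values. After quantile normalization 268 rose (3.43%) and 330 fell (4.23%). All 166 rises were called on both scales, while 718 of the 1048 falls were called on the deposited values alone. With only the 4 compared arrays quantile-normalized together and fitted, 135 bright clusters rose and 68 fell. Over all 65535 clusters, 0.478% rose and 1.93% fell on the deposited values, against 0.563% and 0.699% after quantile normalization. Of the bright clusters called on both scales, 54 of 166 rises and 34 of 330 falls exceeded 8-fold. A lone array moved these counts. With polysomal DMSO replicate 2 left out, bright rises numbered 98, and with polysomal IFNg replicate 2 left out they numbered 95. Bright falls numbered 163 without polysomal DMSO replicate 2, 537 without polysomal IFNg replicate 1 and 306 without polysomal IFNg replicate 2.

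The largest rise belonged to IDO1, which encodes the tryptophan-degrading enzyme indoleamine 2,3-dioxygenase. Its log2 levels were 7.11 and 5.98 on the DMSO arrays and 18.23 and 18.83 on the IFNg arrays. The gene thus went from near the bound for bright clusters to among the highest levels on the array, a change of 11.98 (SE 0.44, adjusted p = 1.37e-08). No detection call accompanies the values, and the array medians of the polysomal DMSO arrays were 4.15 and 4.16, so no fold is given for a gene whose DMSO mean lay below 7. IRF1, the transcription factor named above, had levels of 6.04 and 5.79 with DMSO and 15.15 and 14.93 with IFNg. It rose by 9.13 (SE 0.28, adjusted p = 4.57e-09). GBP1, a guanylate-binding GTPase of cell-autonomous defence, had levels of 6.99 and 7.05 with DMSO and 16.30 and 16.46 with IFNg, a change of 9.37 (SE 0.30, 660-fold, adjusted p = 4.57e-09). Its pseudogene GBP1P1 gave a change of 9.98, and the 2 sequences are related, so probes may be shared between them. CXCL10, a chemokine that attracts activated T cells, had levels of 5.35 and 5.27 with DMSO and 13.14 and 14.13 with IFNg, a change of 8.33 (SE 0.53, adjusted p = 4.55e-06). The other 7 of the 12 largest named rises were CTSS (7.98), TAP1 (7.88), GBP2 (6.95), HLA-DQA1 (6.83), LRP2 (6.71), PARP14 (6.52) and CD274 (6.27). In all 12 genes both IFNg arrays lay far above both DMSO arrays. Genes were named only where the groups did not overlap, so that separation was fixed by the choice. It was also shared by all 166 bright rises called on both scales. With 1 of the 4 arrays left out, the change of IDO1 ran from 11.42 to 12.55 and that of CD274 from 5.90 to 6.63.

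**Figure D1:**
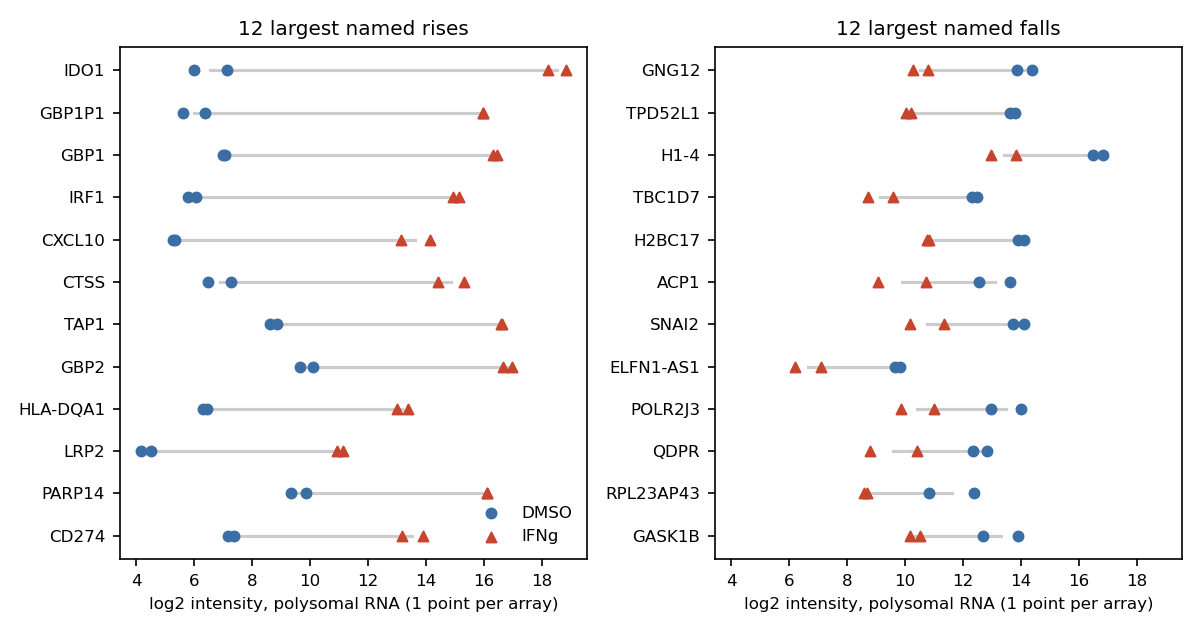
Log2 intensity in polysomal RNA (horizontal axis) of the 12 largest named rises and the 12 largest named falls, with 1 point per array, circles for DMSO and triangles for IFNg, and a grey line between the group means. The rises start at levels of 4.16 to 10.10 and end at 10.93 to 18.83, and the falls start at 9.64 to 16.84 and end at 6.20 to 13.84. Genes were chosen without overlap of the groups.

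Promoters of 6 of these genes are shown because they rose together and carry the elements named in the background. Each line is the 250 bases before the gene's start on the gene's own strand, from RefSeq on build GRCh38.p14, with motif matches in capitals. The GAS motif was searched as TTCNNNGAA, which reads the same on both strands, and the ISRE motif as GAAA, any 2 bases and GAAA again, on either strand. Matches to the ISRE motif may overlap each other, as they do in TAP1 and CD274.
IRF1, chr5:132490774-132491023, minus strand: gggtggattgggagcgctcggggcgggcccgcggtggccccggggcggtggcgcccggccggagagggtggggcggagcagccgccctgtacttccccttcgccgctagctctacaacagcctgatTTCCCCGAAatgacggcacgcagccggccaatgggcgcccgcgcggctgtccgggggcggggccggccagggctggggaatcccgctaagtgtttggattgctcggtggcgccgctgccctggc
GBP1, chr1:89065209-89065458, minus strand: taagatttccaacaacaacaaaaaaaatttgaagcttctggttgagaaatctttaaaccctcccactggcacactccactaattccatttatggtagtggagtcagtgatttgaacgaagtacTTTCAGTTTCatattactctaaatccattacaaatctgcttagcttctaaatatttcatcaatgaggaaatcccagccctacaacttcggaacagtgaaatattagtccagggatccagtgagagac
CXCL10, chr4:76023498-76023747, minus strand: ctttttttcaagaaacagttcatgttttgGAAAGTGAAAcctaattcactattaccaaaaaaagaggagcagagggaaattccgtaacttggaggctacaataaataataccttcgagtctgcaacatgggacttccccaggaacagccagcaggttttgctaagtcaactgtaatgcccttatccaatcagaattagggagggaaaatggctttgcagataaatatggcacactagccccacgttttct
TAP1, chr6:32853705-32853954, minus strand: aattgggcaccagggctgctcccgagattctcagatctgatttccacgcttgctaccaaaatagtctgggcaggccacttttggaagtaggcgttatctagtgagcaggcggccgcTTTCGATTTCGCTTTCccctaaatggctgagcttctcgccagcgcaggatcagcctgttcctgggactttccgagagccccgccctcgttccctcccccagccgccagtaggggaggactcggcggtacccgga
PARP14, chr3:122680589-122680838, plus strand: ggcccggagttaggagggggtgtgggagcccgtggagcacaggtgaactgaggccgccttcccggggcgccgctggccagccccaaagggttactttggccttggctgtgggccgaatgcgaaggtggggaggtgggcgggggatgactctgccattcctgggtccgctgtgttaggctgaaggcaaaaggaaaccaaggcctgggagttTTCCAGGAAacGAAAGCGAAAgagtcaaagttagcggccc
CD274, chr9:5450292-5450541, plus strand: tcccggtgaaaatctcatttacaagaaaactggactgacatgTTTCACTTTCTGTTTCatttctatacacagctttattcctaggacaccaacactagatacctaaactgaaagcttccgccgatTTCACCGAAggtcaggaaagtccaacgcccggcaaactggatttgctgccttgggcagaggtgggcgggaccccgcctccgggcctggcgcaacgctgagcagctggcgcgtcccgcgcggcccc

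Counted from the start, the match in IRF1 is a GAS match at -124 and that in GBP1 an ISRE match at -127. CXCL10 has its ISRE match at -221, and TAP1 has overlapping matches at -134 and -128. PARP14 holds a GAS match at -40 beside an ISRE match at -29, and CD274 a GAS match at -125 with overlapping ISRE matches at -208 and -202. Motifs were counted in promoters of 250 bases before to 50 after the start, which the RefSeq table holds for 107 of the 143 named genes that rose on both scales. The ISRE motif was present in 30 of these 107 (28.0%), against 3.17% of the 3407 bright named genes with a promoter and 3.57% of all 35116 promoters in the table. Among the 155 promoters of genes that fell on both scales, the share was 3.23%. The GAS motif was present in 14 of the 107 (13.1%), against 6.43% of bright named genes and 6.45% of the genes that fell. These shares describe the letters in these windows and were not tested.

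Antigen presentation on class I molecules rose throughout. All 9 measured genes of the list rose, with a median change of 3.57 on the deposited values and 4.08 after quantile normalization, against -0.53 and -0.06 for all bright named genes. Of the bright named genes, 2.81% rose and 15.7% fell on the deposited values, and 4.34% and 4.44% after quantile normalization. TAP1, a subunit of the transporter that carries peptides into the endoplasmic reticulum, had levels of 8.61 and 8.85 with DMSO and 16.64 and 16.59 with IFNg, a 236-fold rise. Its partner TAP2 went from 10.40 and 11.05 to 15.41 and 15.52, a 26.7-fold rise. The class I heavy chains started higher and rose less. HLA-B had levels of 12.87 and 13.33 with DMSO and 15.95 and 15.36 with IFNg, a change of 2.56 (SE 0.35, adjusted p = 0.00277), and HLA-C changed by 2.29 and HLA-E by 3.57. TAPBP, which docks class I molecules at the transporter, changed by 2.61, and the peptide-trimming enzymes ERAP1 and ERAP2 by 3.66 and 2.35. ERAP2 was not called without polysomal DMSO replicate 2 or polysomal IFNg replicate 2. Both measured immunoproteasome subunits, PSMB8 and PSMB9, rose, by 4.67 and 4.40. In each of these 11 genes the IFNg arrays lay above the DMSO arrays, as in all 166 bright rises called on both scales. HLA genes resemble each other, so their probes may read more than 1 of them. Over the 24 bright HLA genes and pseudogenes, 23 rose on the deposited values and 24 after quantile normalization.

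Class II genes, whose products present extracellular peptides to helper T cells, rose in 9 of 10 measured cases on either scale, with a median change of 4.37. HLA-DRA, the alpha chain of HLA-DR, had levels of 15.10 and 16.65 with DMSO and 18.88 and 19.09 with IFNg, a change of 3.11 (SE 0.53, adjusted p = 0.00892) whose call was lost without polysomal DMSO replicate 1 or polysomal IFNg replicate 2. HLA-DQA1 started near the dim end at 6.43 and 6.29 and reached 12.99 and 13.39. The DMSO replicates were unequal for this group. In 9 of the 10 genes DMSO replicate 2 exceeded replicate 1, by a median of 1.35, and total RNA gave the same count with a median of 1.41. HLA-DRB1, for example, had 11.01 and 13.43 with DMSO and 16.67 and 17.30 with IFNg, so the groups stayed apart (change 4.76, SE 0.75, adjusted p = 0.00556). Its call was lost without polysomal IFNg replicate 2. CD74, the chaperone that occupies the class II groove, was the exception. Its levels were 15.93 and 17.39 with DMSO and 18.71 and 17.57 with IFNg, so that the groups were separated by little and the change of 1.48 (SE 0.59, adjusted p = 0.286) did not pass. In total RNA CD74 rose by 3.62 (adjusted p = 0.0180), and the test of the difference between fractions did not call it. CTSS, the protease cathepsin S that cleaves CD74, went from 6.48 and 7.28 to 14.41 and 15.31.

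Of the 8 guanylate-binding proteins and related IFNg GTPases, 6 rose on polysomes. Besides GBP1, GBP2 went from 10.10 and 9.64 to 16.97 and 16.68, a 124-fold rise, and GBP4 changed by 6.08 (SE 0.55, adjusted p = 0.000145). GBP5 had levels of 4.23 and 3.58 with DMSO and 8.61 and 11.36 with IFNg. Its change of 6.08 (SE 0.92, adjusted p = 0.00443) was not called without polysomal DMSO replicate 2 or polysomal IFNg replicate 2. GBP7 rose by 1.47, a call that held without polysomal DMSO replicate 1 but not without any other of the 4 arrays, while GBP6 and IRGM stayed below a level of 5 on all 4 arrays and did not pass. Among 6 measured chemokines, CXCL9 and CXCL10 rose. CXCL9 went from 5.08 and 5.64 to 8.28 and 7.94. CXCL11, another ligand of the same receptor, had dim levels of 4.40 and 4.77 with DMSO and 4.92 and 5.23 with IFNg, and its change of 0.49 did not pass on polysomes. CXCL1, CXCL2 and CXCL8, ligands of neutrophil receptors, had changes of -0.20, -0.20 and -0.95, none of which passed.

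Of 5 measured genes of the checkpoint and tryptophan list, IDO1 included, 3 rose. CD274, which encodes PD-L1, had levels of 7.17 and 7.37 with DMSO and 13.90 and 13.17 with IFNg, a 77.0-fold rise (change 6.27, SE 0.33, adjusted p = 5.84e-07). PDCD1LG2, which encodes PD-L2, was dimmer, with 5.28 and 4.70 against 7.03 and 7.77, a change of 2.42 (SE 0.35, adjusted p = 0.00347) that was not called without polysomal DMSO replicate 2. TNFRSF14, the receptor HVEM, had overlapping levels of 7.99 and 8.27 with DMSO and 8.44 and 7.59 with IFNg, a change of -0.12 (SE 0.33, adjusted p = 0.938), while its total RNA rose by 2.00 (adjusted p = 0.0199). KYNU, an enzyme downstream of IDO1 in tryptophan breakdown, changed by 0.55 and did not pass.

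Of 12 measured antiviral genes 8 rose, with a median change of 2.68. The count was 4 without polysomal DMSO replicate 2. PARP14, an ADP-ribosyltransferase, had levels of 9.84 and 9.33 with DMSO and 16.13 and 16.09 with IFNg, a 92.1-fold rise. IFIH1, the RNA sensor MDA5, went from 7.92 and 7.78 to 10.90 and 12.35 (change 3.77, SE 0.43, adjusted p = 0.000875), and DDX60, an RNA helicase, rose by 4.37. EIF2AK2, the kinase PKR that phosphorylates the initiation factor eIF2, had levels of 13.01 and 13.03 with DMSO and 14.60 and 14.91 with IFNg, a change of 1.73 (SE 0.34, adjusted p = 0.0187). Its call was lost without any 1 of the 4 arrays. IFI16, a DNA sensor, was called after quantile normalization (1.71, adjusted p = 0.0435) but not on the deposited values (1.29, adjusted p = 0.0959).

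The signalling genes upstream moved less. None of 4 measured genes of the receptor and JAK-STAT list passed on the deposited values. JAK2, a receptor-bound kinase, had levels of 7.52 and 6.95 with DMSO and 8.33 and 8.47 with IFNg, which did not overlap, with a change of 1.16 (SE 0.31, adjusted p = 0.0788). After quantile normalization its change was 1.53 (adjusted p = 0.0263). IFNGR1, the ligand-binding receptor chain, and JAK1 had changes of 0.07 and 0.23. Among the interferon response transcription factors SP110, a nuclear body protein, rose with IRF1 (change 2.11, SE 0.34, adjusted p = 0.00597), a call lost without polysomal DMSO replicate 2. IRF2, which competes with IRF1 for its sites, was called after quantile normalization alone (1.22, adjusted p = 0.0487). Over the 9 interferon lists, which hold 60 different measured genes, 41 rose and 0 fell on the deposited values, and 44 rose after quantile normalization. Of all clusters 0.478% and 0.563% rose on these 2 scales. Of the 47 bright members 38 and 41 rose, against 2.81% and 4.34% of all bright named genes. The members and lists were chosen with results of these arrays known, so these counts describe the response and are no independent evidence of it.

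**Figure D2:**
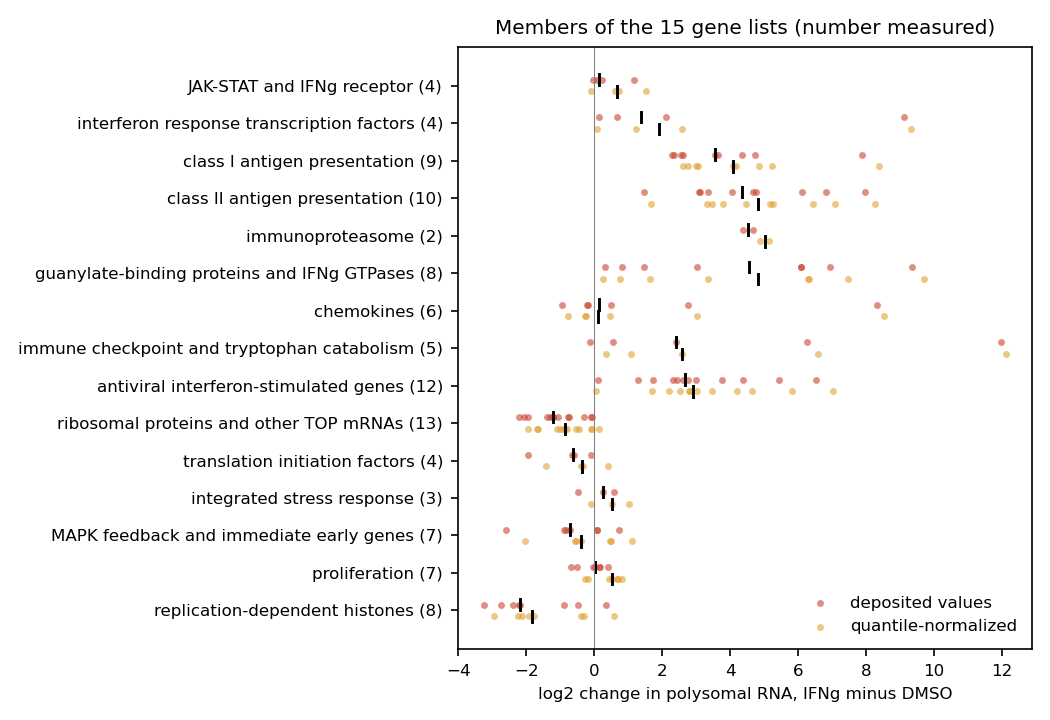
Log2 change in polysomal RNA, IFNg minus DMSO (horizontal axis), of each measured member of the 15 gene lists, on deposited values (upper row of each list) and after quantile normalization (lower row), with black bars at the medians. Members of the antigen presentation and immunoproteasome lists lie to the right of 0, and most histone and ribosomal protein members to the left.

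Large rises also occurred outside the lists. LRP2, the endocytic receptor megalin, had levels of 4.50 and 4.16 with DMSO and 10.93 and 11.15 with IFNg (change 6.71, SE 0.29, adjusted p = 8.29e-08). Its DMSO levels were at the array medians, so the size of the rise rests on a level not shown to be above background. The following genes were picked after their values were seen. AIM2, a sensor of cytosolic DNA, rose by 4.86, TLR3, a receptor for double-stranded RNA, by 4.36, and CSF1, a growth factor for macrophages, by 3.90. FN1, the matrix protein fibronectin, rose by 4.11, and CD47, which signals to phagocytes, by 2.95. CD47 was not called without polysomal DMSO replicate 1 or polysomal IFNg replicate 2, while the other 4 kept their calls without any 1 of the 4 arrays.

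The falls were smaller and depended more on the scale. The median change of bright clusters was -0.44 on the deposited values, 0.00 after quantile normalization and -0.10 in total RNA. Split by level, the deposited polysomal median was -0.33 for clusters with a mean level of 7 to 8, -0.51 at 8 to 10 and at 10 to 12, and -0.24 at 16 and above. Clusters below 4 had a median of 0.08. Quantile normalization, which gives the arrays 1 common distribution, brought every median to within 0.05 of 0. An overall loss of RNA from polysomes and lower readings of bright clusters on the polysomal IFNg arrays cannot be told apart here. Neither can fewer cells carrying a transcript and less of it per cell. Falls of lists and families are therefore counted below on both scales, and the 12 largest named falls were called on both.

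**Figure D3:**
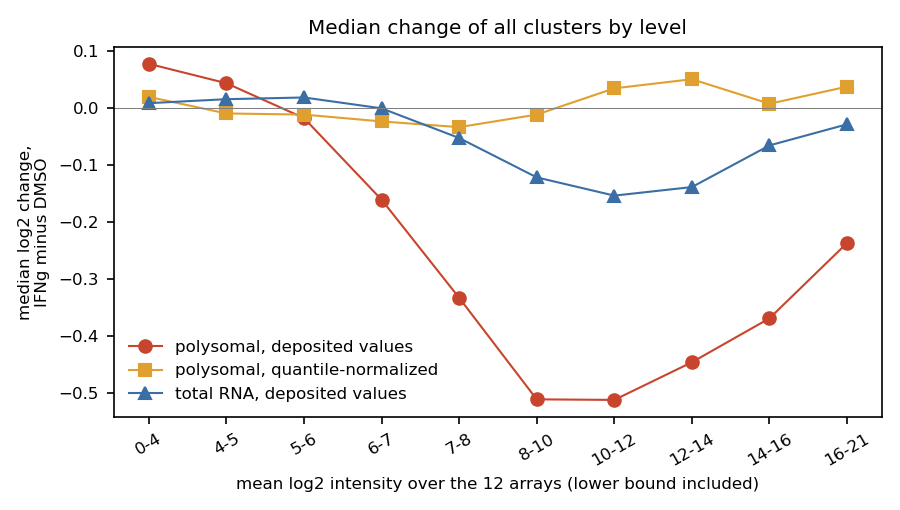
Median log2 change, IFNg minus DMSO (vertical axis), of all clusters in bands of mean log2 level (horizontal axis), for polysomal RNA on deposited values, polysomal RNA after quantile normalization and total RNA. The deposited polysomal median lies lowest, at -0.51, between levels of 8 and 12, while the quantile-normalized medians stay within 0.05 of 0.

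Named genes that fell on both scales numbered 226 of 5087, with a median change of -2.20 on the deposited values and -1.74 after quantile normalization. GNG12, a G protein gamma subunit, had levels of 13.88 and 14.37 with DMSO and 10.79 and 10.26 with IFNg, a 12.1-fold fall (change -3.59, SE 0.30, adjusted p = 6.95e-05). TPD52L1, a protein of the tumour protein D52 family, went from 13.62 and 13.80 to 10.04 and 10.20, also a 12.1-fold fall, and its relative TPD52 changed by -2.71. TBC1D7, a subunit of the tuberous sclerosis complex that restrains mTORC1, had levels of 12.32 and 12.47 with DMSO and 8.72 and 9.56 with IFNg, a 9.52-fold fall. In GNG12, TPD52L1 and TBC1D7 both IFNg arrays lay more than 2 log2 units below the DMSO arrays. SNAI2, the transcription factor Slug of neural crest cells, went from 14.09 and 13.72 to 11.33 and 10.16 (change -3.16, SE 0.51, adjusted p = 0.00654). That call was lost without polysomal DMSO replicate 2 or polysomal IFNg replicate 2. ACP1, a small tyrosine phosphatase, changed by -3.20, POLR2J3, an RNA polymerase II subunit gene copy, by -3.07, QDPR, an enzyme of biopterin recycling, by -2.99, and GASK1B by -2.96. ELFN1-AS1 and RPL23AP43, an antisense RNA and a ribosomal protein pseudogene, changed by -3.09 and -2.98. Among the 12 largest named falls, GNG12, TPD52L1, H1-4, TBC1D7 and GASK1B were called without any 1 of the 4 arrays, and H2BC17 was not called once an array was left out. Leaving out polysomal DMSO replicate 2 ended the calls of ACP1, ELFN1-AS1, POLR2J3, QDPR and RPL23AP43. Polysomal IFNg replicate 2 did so for ACP1, ELFN1-AS1 and RPL23AP43, and polysomal DMSO replicate 1 or IFNg replicate 1 for QDPR.

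Histone genes stood among the largest falls. Of 8 listed replication-dependent histone genes, whose mRNAs end in a stem-loop in place of a poly(A) tail, 4 fell on the deposited values and 3 after quantile normalization, with median changes of -2.19 and -1.85. Their median in total RNA was -0.32, and none was called there. The 2 total DMSO arrays were unequal for these genes. Replicate 2 minus replicate 1 had a median of -1.48 and ran from -2.94 to -0.48, so the total change is imprecise. H1-4, a linker histone, had levels of 16.84 and 16.49 with DMSO and 13.84 and 12.98 with IFNg, a 9.53-fold fall (change -3.25, SE 0.41, adjusted p = 0.00155). In total RNA the same gene had 16.59 and 15.20 with DMSO and 15.90 and 15.96 with IFNg, a change of 0.04. H3C2 had levels of 17.51 and 17.17 with DMSO and 14.67 and 15.21 with IFNg, a change of -2.40 (SE 0.44, adjusted p = 0.0131), and H2BC5 changed by -2.18. The call of H3C2 was lost without any 1 of the 4 arrays, and that of H2BC5 without polysomal DMSO replicate 2 or IFNg replicate 2. H4C8 went the other way on 1 array, with 16.68 and 16.37 against 15.01 and 18.75, and did not pass. The number of listed falls was 2 without polysomal DMSO replicate 1 or polysomal IFNg replicate 1, and 1 without polysomal DMSO replicate 2 or polysomal IFNg replicate 2. Histone genes resemble each other, so probes may be shared. Taken by symbol, which was decided after the data were seen, 48 of 49 bright histone genes had a change below 0 on either scale. The shares of all bright clusters below 0 were 73.1% on the deposited values and 49.8% after quantile normalization. In total RNA 34 of the 49 lay below 0, against 57.8% of bright clusters and 2517 of the 4046 bright protein-coding clusters. Called falls numbered 21 on the deposited values and 5 after quantile normalization (shares of all bright named genes 15.7% and 4.44%). With 1 of the 4 arrays left out the 21 falls became 1 to 5, fewest without polysomal DMSO replicate 2.

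Ribosomal protein mRNAs carry a 5′ terminal oligopyrimidine tract (TOP) that ties their translation to mTORC1. Of 13 measured TOP mRNAs 7 fell on the deposited values and 2 after quantile normalization, with median changes of -1.20 and -0.85, against -0.33 in total RNA. The 7 falls became 3 without polysomal DMSO replicate 1 and 2 without any other of the 4 arrays. RPL22 had levels of 17.40 and 17.47 with DMSO and 15.61 and 14.81 with IFNg, a 4.69-fold fall (change -2.23, SE 0.28, adjusted p = 0.00175). RPL7 had 17.94 and 18.08 with DMSO and 16.32 and 15.78 with IFNg, a 3.89-fold fall. EEF1A1, an elongation factor with a TOP mRNA, stayed near the top of the scale with 19.28 and 19.20 against 19.05 and 19.25, overlapping levels and a change of -0.09. Over all 25 bright cytosolic ribosomal protein genes and close paralogs taken by symbol, 15 fell on the deposited values and 8 after quantile normalization. The 15 became 4 to 8 with 1 of the 4 arrays left out. Of the 25, 24 lay below 0 after quantile normalization, where the share over all bright named genes was 52.7%. Further families held falls, read here against the 15.7% and 4.44% of all bright named genes. Of 36 mitochondrial ribosomal protein genes, 17 fell on the deposited values and 7 after quantile normalization, among them MRPS24 (-2.64) and MRPL36 (-2.62). The 17 became 4 to 9 with 1 of the 4 arrays left out, and MRPS24 was not called without polysomal DMSO replicate 2 or IFNg replicate 2. Of 15 RNA polymerase subunit genes 8 and 4 fell, of 14 ATP synthase and V-ATPase genes 7 and 3, and of 10 LSM and SNRP genes of splicing and mRNA decay 3 and 2. With 1 array left out, the deposited counts of these 3 families ranged over 1 to 6, 1 to 5 and 0 to 3. By contrast 1 of 14 kinesin genes and 6 of 86 solute carrier genes fell on the deposited values, and 0 and 1 after quantile normalization. With 1 array left out the kinesin count was 0 each time, and the solute carrier count ranged from 0 to 9. These families were also taken by symbol after the data were seen, and their difference from other genes was not tested.

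**Figure D4:**
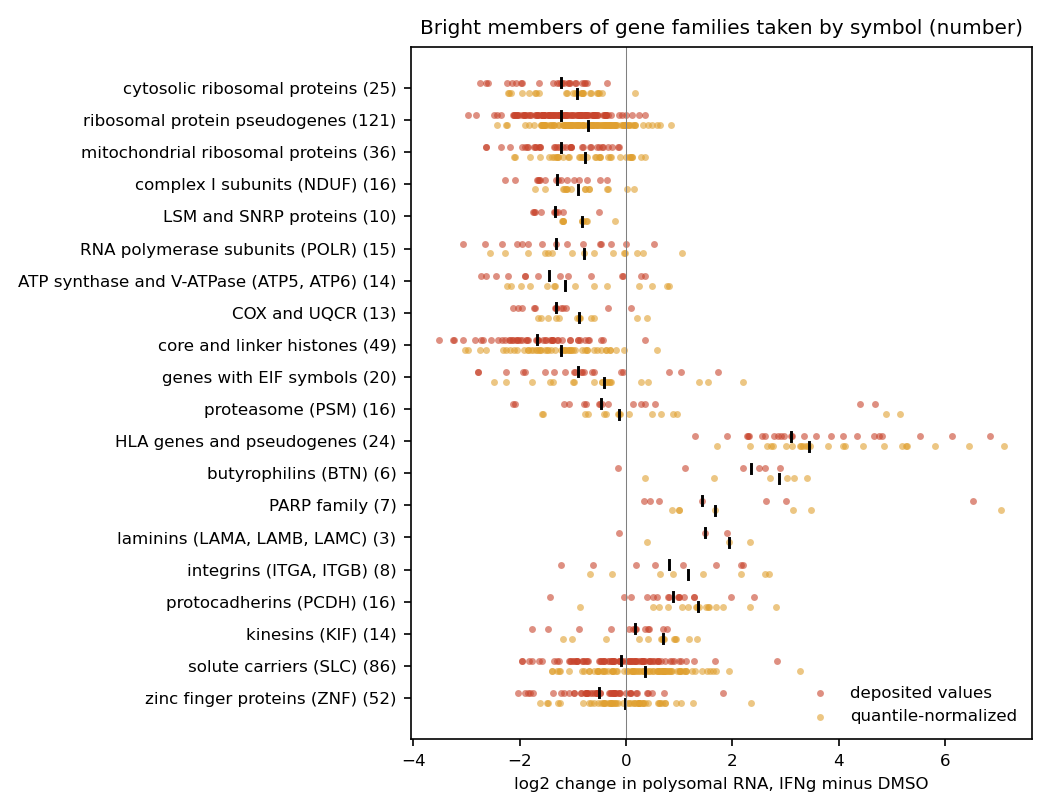
Log2 change in polysomal RNA, IFNg minus DMSO (horizontal axis), of each bright member of 20 gene families taken by symbol, on deposited values (upper row of each family) and after quantile normalization (lower row), with black bars at the medians. HLA genes lie between 1.30 and 6.83 on the deposited values, and cytosolic ribosomal proteins between -2.75 and -0.37.

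Within the translation machinery, EIF4EBP1 had levels of 15.92 and 16.24 with DMSO and 13.52 and 13.07 with IFNg. It encodes 4E-BP1, a repressor of the cap-binding protein eIF4E, and its change of -2.79 (adjusted p = 0.000875) was called on both scales. EIF4E2, a cap-binding relative of eIF4E, fell by 2.77 on the log2 scale. EIF4E itself had levels of 12.42 and 13.44 with DMSO and 11.04 and 10.92 with IFNg, a change of -1.94 (SE 0.38, adjusted p = 0.0167). It was not called after quantile normalization (adjusted p = 0.0712), nor without polysomal DMSO replicate 2 or either polysomal IFNg array. EIF4G1, the scaffold of the cap-binding complex, had a change of -0.10. Of 3 measured integrated stress response genes and 7 proliferation genes none passed on either scale, with CCNB1, a mitotic cyclin, at 14.02 and 13.98 against 14.05 and 14.74.

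MYC, the growth-promoting transcription factor, had levels of 12.14 and 11.15 with DMSO and 8.79 and 9.31 with IFNg, a 6.02-fold fall (change -2.59, SE 0.46, adjusted p = 0.00998). The call was lost after quantile normalization (change -2.05, adjusted p = 0.0505) and without polysomal DMSO replicate 1 or polysomal IFNg replicate 1. It was the single member of 7 measured genes of the MAPK and immediate early list that passed. MITF had levels of 14.50 and 13.61 with DMSO and 12.19 and 12.32 with IFNg, a change of -1.80 (SE 0.35, adjusted p = 0.0164) that was not called after quantile normalization (-1.35, adjusted p = 0.119) or without polysomal DMSO replicate 1 or either polysomal IFNg array.

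Clusters without a single gene symbol made up 100 of the 330 bright falls called on both scales, and the 14 largest falls were all of this kind. Of these 100, 46 had a change above 0 in total RNA and 36 were called in the test of the difference between fractions. Of all bright clusters that test called 0.0384% with a higher and 0.935% with a lower change on polysomes. Among the 230 clusters with a symbol, 17 lay above 0 in total RNA and 10 were called in that test. What the unnamed clusters transcribe is not given in the table used here.

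The genes called on polysomes were set beside their changes in total RNA, a contrast that choosing them by the polysomal call fixes in part. Of the 143 named genes that rose on both polysomal scales, 95 rose in total RNA, 0 fell and 48 did not pass. Their median changes were 2.50 on polysomes and 2.73 in total RNA. Of the 226 that fell on both scales, 5 fell in total RNA, 0 rose and 221 did not pass, and the median changes were -2.20 and -0.65. In total RNA 212 of the 226 lay below 0, against 57.8% of all bright clusters, with or without a symbol. Of the 4046 bright protein-coding clusters 2517 lay below 0 there. Over all bright named genes 2.14% rose and 0.138% fell in total RNA, and over all clusters 0.287% and 0.0244%. The difference between the polysomal and the total change was tested as an interaction, which called 12 bright named genes, 2 higher on polysomes (0.0393%) and 10 lower (0.197%). Of the 143 rises 3 were called in it, and of the 226 falls 7. After quantile normalization within each fraction it called 4 higher (0.0786%) and 2 lower (0.0393%). Over all clusters 7 were higher (0.0107%) and 105 lower (0.16%) on the deposited values, and 9 (0.0137%) and 64 (0.0977%) after quantile normalization. This test had a median SE of 0.48 for bright clusters, and in simulated data it recovered 28% of differences of 2 and 88% of differences of 3. That simulation changed 50 clusters of any level per size, with independent noise and no dimmer arrays, so its rates may not hold here.

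RMRP, the RNA of the ribonuclease MRP complex and no mRNA, had the largest difference among named genes. Its total RNA levels were 9.26 and 9.27 with DMSO and 12.001 and 12.704 with IFNg, and its polysomal levels 7.06 and 7.50 against 5.29 and 5.69. The polysomal change of -1.79 did not pass (adjusted p = 0.0772), and the difference between fractions was -4.88 (SE 0.68, adjusted p = 0.0105). NREP, a neuronal regeneration-related protein, rose by 1.89 in total RNA and had polysomal levels of 9.82 and 10.09 with DMSO and 8.64 and 8.22 with IFNg. Its difference was -3.41 (SE 0.48, adjusted p = 0.0111). GBP3 was the single member of the interferon lists that was called. It had total RNA levels of 5.66 and 5.68 with DMSO and 11.11 and 11.36 with IFNg, and polysomal levels of 6.60 and 6.76 against 9.98 and 9.45. It rose in both fractions, by 5.56 and 3.04, and the difference was -2.52 (SE 0.41, adjusted p = 0.0317). That call was lost after quantile normalization within each fraction (adjusted p = 0.0769) and held in 3 of 12 fits without 1 array. The lower calls of RMRP and NREP held after quantile normalization and in 10 of the 12 fits each, ending in both cases without polysomal DMSO replicate 2.

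The IFNg change of PRKDC and MDN1 was higher on polysomes than in total RNA, although their polysomal levels with DMSO lay below their total RNA levels. PRKDC, the catalytic subunit of the DNA repair kinase DNA-PK, had polysomal levels of 11.65 and 11.68 with DMSO and 14.05 and 13.89 with IFNg, while its total RNA levels were 15.32 and 15.56 against 15.53 and 15.75. The polysomal change was 2.30, the total change 0.20 and the difference 2.10 (SE 0.35, adjusted p = 0.0379). MDN1, an ATPase of ribosome assembly, had polysomal levels of 7.01 and 7.22 with DMSO and 8.90 and 9.71 with IFNg, and total RNA levels of 9.75 and 9.83 against 9.53 and 8.66, a difference of 2.89 (SE 0.49, adjusted p = 0.0379). Both differences were called after quantile normalization too, at 2.57 and 3.21. Without 1 of the 12 arrays the PRKDC call held in 0 fits and the MDN1 call in 2.

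**Figure D5:**
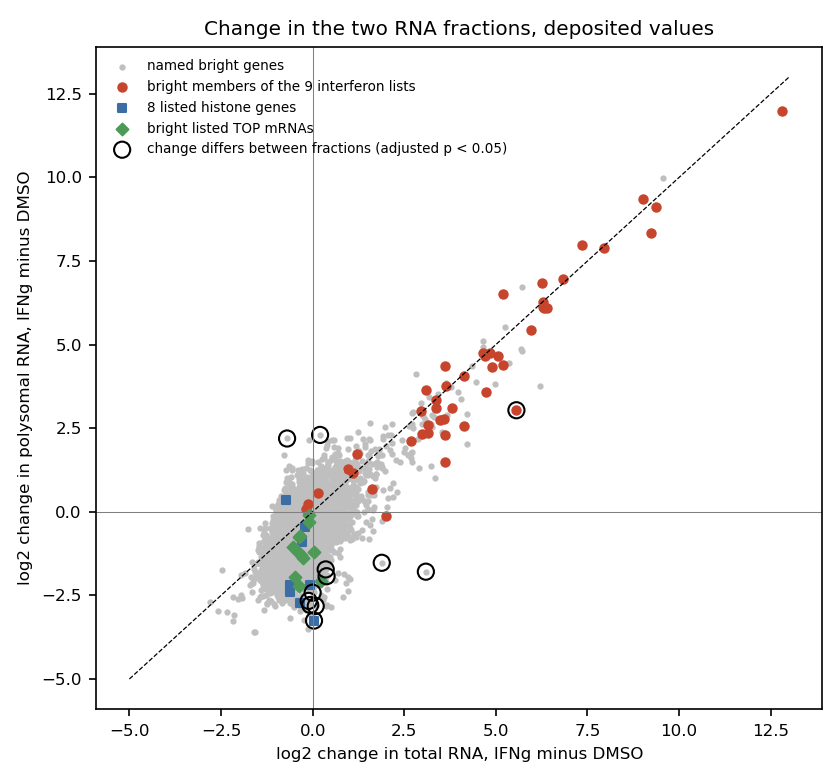
Log2 change with IFNg in total RNA (horizontal axis) and polysomal RNA (vertical axis) of the 5087 bright named genes on deposited values, with list members coloured, the 12 genes whose change differed between fractions circled, and a dashed line of equal change. Interferon list members run along the line up to IDO1 at 12.82 and 11.98. Of the 226 genes that fell on polysomes on both scales, 183 had a total change within 1 of 0.

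PRKDC and MDN1 belong to 33 named genes that rose on both polysomal scales while their total RNA changed by less than 1 in either direction. The median change of the 33 was 1.54 on polysomes and 0.54 in total RNA, a contrast that the choice of the genes fixes in part. The members named next were picked after their values were seen, and the 33 also hold other genes, a microRNA gene and pseudogenes. They include TRRAP, BIRC6, UBR4, USP24 and LRBA, and also LAMB1, LAMC1 and AGRN of the basement membrane, ITGA2 and ITGAV, integrin chains that bind matrix, IGF2R, the receptor for mannose 6-phosphate, and UGGT1, which checks glycoprotein folding. LAMC1 changed by 1.90 on polysomes and 0.69 in total RNA, IGF2R by 2.10 and 0.43, and UGGT1 by 1.99 and 0.40. STING1, the adaptor of cytosolic DNA sensing, changed by 1.54 and 0.49. Of the 33 polysomal calls, 2 held without any 1 of the 4 arrays, and 10 held in none of these fits. TRRAP, BIRC6, UBR4, USP24, LAMB1 and ITGAV were not called once an array was left out. LRBA, AGRN and ITGA2 were not called without DMSO replicate 2 or IFNg replicate 2. The call of LAMC1 was lost without DMSO replicate 2, that of IGF2R without DMSO or IFNg replicate 1, that of MDN1 without IFNg replicate 2, and that of STING1 without either DMSO array or IFNg replicate 2. Apart from PRKDC and MDN1 none of the 33 was called in the test of the difference on the deposited values. The ISRE motif was found in 1 of 21 of their promoters, against 27 of 74 promoters of the genes that also rose in total RNA and 3.17% of bright named genes. The GAS motif was found in 2 of the 21 and 11 of the 74, against 6.43%, and neither difference was tested.

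Levels after IFNg with silvestrol are given beside these because both treatments are measured from the same DMSO arrays, and no overlap is read from them. The genes were also chosen for their change from those arrays. On polysomes the 12 largest named rises changed by 5.64 to 11.82 with IFNg and silvestrol, where IFNg alone gave 6.27 to 11.98. The 12 largest named falls had changes from -3.98 to 0.61, where IFNg alone gave -3.59 to -2.96. H1-4 and H2BC17 had changes of 0.09 and 0.61, and TBC1D7 and GASK1B of -2.95 and -3.98.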

How the data were processed

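RNA of A375 cells had been measured on 12 Affymetrix arrays (6 groups of 2), biotin-labelled, per the labels' protocols. The authors deposited 1 linear intensity per transcript cluster and array, with software, background correction, normalization and genome build not given in the sources used here. No detection call accompanies the values, and the number of arrays limits the precision (median SE 0.31). The deposited intensities were put on the log2 scale without pseudocount or filter. A model with a mean for each of the 6 groups over the 12 arrays was then fitted in limma 3.58.1 (R 4.3.3, lmFit and eBayes), with Benjamini-Hochberg adjustment over 65535 clusters. Symbols came from the platform annotation (16130 clusters with 1 symbol, 419 with several, 48986 with none), and 10777 of them matched the RefSeq gene table by gene identifier. Named were the 12 largest rises and falls among bright clusters called on deposited and quantile-normalized values without overlap of arrays, and up to 4 called members per list. The members and lists were chosen with earlier results of these data known. On simulated data for this comparison over 65535 clusters, the test recovered 10% of clusters changed by 1 (log2), 86% at a size of 2 and 100% at a size of 3, with 2 false calls. The simulated noise was independent between arrays, 50 clusters of any level were changed per size, and no array was dimmer. The measured data differ in these respects. Same-numbered samples deviated together with correlations between -0.07 and 0.21 over 15 pairs of groups, 2 of them above 0.1. Numbers were therefore not taken as pairs. These correlations cover all clusters, most of them dim, so they cannot exclude pairing. The class II genes shared a replicate shift between the 2 DMSO fractions. Alternatives are listed in the closing section.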

Additional observations from a re-analysis of the deposited data

Results flagged for a closer look

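In 12 bright named genes the IFNg change in polysomal RNA differed from that in total RNA by limma's interaction test, and each difference below is the polysomal minus the total change on the log2 scale. The change was lower on polysomes for RMRP (-4.88), NREP (-3.41), the linker histone gene H1-4 (-3.29) and PPP1R2, an inhibitor of protein phosphatase 1 (-2.90). It was also lower for EIF4EBP1 (-2.72), the pseudogene PPP1R14BP3 (-2.56), GBP3 (-2.52), UMAD1 (-2.42), the kinetochore gene CENPH (-2.31) and the nucleosome-binding gene HMGN3 (-2.08). The change was higher on polysomes for PRKDC (2.10) and MDN1 (2.89). RMRP and NREP rose in total RNA and had polysomal changes of -1.79 (adjusted p = 0.0772, not called) and -1.52 (adjusted p = 0.0325), neither called after quantile normalization. PPP1R2 had polysomal levels of 10.52 and 10.87 with DMSO and 8.44 and 7.32 with IFNg, while its total RNA levels lay between 10.05 and 10.24 on all 4 arrays. After quantile normalization within each fraction RMRP (adjusted p = 0.0175), NREP (0.0225), PRKDC (0.0213) and MDN1 (0.0360) were still called, and the other 8 were not. In 12 fits without 1 array each, the calls of RMRP and NREP held in 10, that of GBP3 in 3, and those of H1-4, EIF4EBP1, UMAD1 and MDN1 in 2. The calls of PPP1R2, PPP1R14BP3 and CENPH held in 1 of the 12, and those of HMGN3 and PRKDC in 0. The polysomal IFNg arrays were the dimmest of the series (mean intensities 1237 and 1347), and the part of this in the 10 lower differences was not tested beyond that normalization.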

How the results depend on the processing

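Of the 48 named genes, 26 were called under every alternative run, and no named change reversed. Clusters that rose on polysomes (313 on deposited values) numbered 171 when the other arrays were left out of the fit, 154 with quantile normalization of those 4 arrays alone, and 119 to 363 with 1 array left out. Those that fell (1264) numbered 458 with quantile normalization within each fraction, 491 over all 12 arrays, 730 without those other arrays, 90 with quantile normalization of those 4 arrays alone, and 191 to 1390 with 1 array left out. Bright rises (166) numbered 268 and 277 under these quantile normalizations, 258 when bright clusters alone were tested, and 95 to 164 with 1 array left out. Bright falls (1048) numbered 330, 339, 643 without those other arrays, 68 with quantile normalization of those 4 arrays alone, 1764 with bright clusters alone, and 163 to 1144 with 1 array left out. Differences between fractions were higher on polysomes in 7 clusters and lower in 105. The higher ones numbered 0 without those other arrays, 4 with an intensity trend, 4 with the replicate block, and 0 to 15 with 1 array left out. The lower ones numbered 64 within each fraction, 66 over all 12 arrays, 48 without those other arrays, and 37 to 137 with 1 array left out. With the replicate block, a term for the replicate number, 342 clusters rose and 1378 fell on polysomes, and the lower differences numbered 96. A random block for same-numbered fractions of a treatment gave 313 rises and 1270 falls. A fit with 1 array left out borrows the spread of a group's lone array from the other groups. Centring the arrays on their medians gave 284 rises and 1525 falls on polysomes, and 162 and 1209 among bright clusters. The cause of the shifts between these alternatives was not tested. With 2 arrays per group, log2 changes of 1 were mostly below detection. The shift by level bands and the families by symbol were chosen after seeing the data.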

Other observations

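Further families taken by symbol, chosen after the data were seen, held calls on polysomes, beside 2.81% rises and 15.7% falls over all bright named genes (4.34% and 4.44% after quantile normalization). Of 6 bright butyrophilin genes, relatives of B7 molecules that act on T cells, 4 rose on both scales (BTN2A2, BTN3A1, BTN3A2 and BTN3A3, by 2.19 to 2.89), and the same count rose in total RNA. Of 7 PARP family genes 4 rose, PARP14 by 6.52, PARP9 by 3.005, PARP12 by 2.64 and PARP10 by 1.43, while PARP1, the main DNA repair enzyme of the family, had a change of 0.34 that did not pass. PARP9 was not called without polysomal DMSO replicate 2, nor PARP10 without that array or either polysomal IFNg array. Of 8 integrin genes ITGA2, ITGA9 and ITGAV rose, by 2.20, 2.17 and 1.69, and none of the 8 rose in total RNA. ITGA2 was not called without polysomal DMSO replicate 2 or IFNg replicate 2, and ITGAV was not called without any 1 of the 4 arrays. Of 16 protocadherin genes, adhesion molecules, 3 rose on polysomes and 1 in total RNA. With 1 of the 4 arrays left out the 3 became 1 to 3, PCDHB9 being called in 1 of these 4 fits and PCDHB15 in 2. None of these shares was tested against other genes.

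Of 121 bright ribosomal protein pseudogenes, 44 fell on the deposited values and 13 after quantile normalization (shares of all bright named genes 15.7% and 4.44%). Their median change was -1.22 on polysomes and -0.35 in total RNA. The 44 became 3 without polysomal DMSO replicate 2, 10 and 19 without IFNg replicate 2 and 1, and 38 without DMSO replicate 1. Their sequences resemble the ribosomal protein mRNAs, so shared probes may read both.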
